A study of Mus musculus with 6 samples.

Results

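The SLC25 family of mitochondrial carriers was examined across 6 bulk RNA sequencing libraries of mouse chondrocytes, the resident cells of cartilage. Members were all rows of the deposited count table whose symbol is Slc25a followed by digits alone, which gave 46 of 23867 genes. Carriers that the table lists under other symbols, such as the uncoupling proteins, were kept apart and are described at the end. The study compared 3 libraries of the genotype labelled MFN2wt, called wild type here, with 3 of the genotype labelled MFN2Col2a1-/-, called the knockout, whose count columns are named CRE1 to CRE3. The genotype name joins Mfn2, which encodes the mitochondrial fusion protein mitofusin 2, with Col2a1, a cartilage collagen gene. The sources used here do not give the driver of the deletion, the strain, the age or number of animals, the joint or the handling of the cells. Nor do they say whether the 3 libraries per genotype stem from different animals, so each p-value reflects spread among libraries that may be technical.

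SLC25 proteins carry small molecules across the inner mitochondrial membrane, which is otherwise closed to them. They exchange ADP for ATP, import phosphate, export citrate, run the aspartate-glutamate step of the malate-aspartate shuttle, and bring in amino acids, iron and cofactors. Most are built from 3 repeats of a pair of membrane helices, and newly made carriers are inserted by the TIM22 complex. A few members sit elsewhere, among them Slc25a17 in peroxisomes and Slc25a46 in the outer mitochondrial membrane, where it binds the fusion machinery that includes mitofusin 2.

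Knockout libraries held 31481779 to 37814723 counts, and wild-type libraries 39267487 to 40152687. Levels below are CPM, counts relative to the library's total after TMM scaling, given as mean ± SD over n = 3 libraries. Mfn2 itself was at 60.0 ± 3.78 CPM in knockout libraries against 107 ± 0.937 CPM. All 12 chondrocyte markers were detected, and all 12 were lower in the knockout, with a summed level of 3003 to 3132 CPM against 8529 to 8726 CPM. All 12 macrophage markers were also lower (314 to 325 CPM against 2913 to 2934 CPM in sum), as were all 10 markers of dividing cells (55.3 to 60.0 CPM against 354 to 363 CPM), and none of these was at 0. Of the other marker lists, fibroblast genes gave 3 higher and 4 lower of 8 tested, and endothelial genes 1 higher and 1 lower of 5. Skeletal muscle gave 1 higher of 8, adipocytes 1 higher of 4, and erythroid cells none of 2 (summed level 0.989 to 2.23 CPM against 0.640 to 1.13 CPM). These calls use the test described below, at an adjusted p under 0.05. Over all tested genes 30.7% were called higher and 32.1% lower. Fibroblast genes summed to 14852 to 15878 CPM in the knockout against 11384 to 11617 CPM, and adipocyte genes to 207 to 224 CPM against 76.8 to 82.2 CPM. Col3a1, the most abundant fibroblast gene listed, was called higher, at 9778 ± 327 against 5939 ± 62.2 CPM. Dpt and Dpp4 were also called higher, while Pdgfra, Thy1, Col14a1 and Clec3b were called lower and Col1a1 did not pass. The median log2 fold change of the fibroblast list was −0.042, so its higher sum does not describe the list as a whole. Fabp4, the only adipocyte gene called, was at 191 ± 9.79 against 57.6 ± 3.25 CPM. The sums for skeletal muscle and endothelial genes overlapped between groups. The part that shifts in cell makeup have in the values below was not tested, and in bulk RNA fewer cells of a type cannot be told apart from less RNA per cell.

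Of the 46 carriers, 40 had enough counts to be tested. In the knockout 12 of these were higher and 8 lower at a Benjamini-Hochberg adjusted p under 0.05 (edgeR quasi-likelihood test over all genes), and 20 did not pass. That is 50% of the tested carriers, where 62.7% of all 15028 tested genes were called. By direction, 30% of the carriers were higher (30.7% of all genes) and 20% were lower (32.1% of all genes). In 24 of the 40 carriers the libraries of the groups did not overlap, 15 with the knockout above and 9 with it below, a share of 60% against 67.1% of all genes (32.3% above and 34.8% below). Their median log2 fold change was 0.08, beside −0.02 for all tested genes. Changes were small for the most part: 9 carriers were called with a log2 fold change of at least 0.5 in size (22.5%, against 33.6% of all genes). Past 2-fold, 1 carrier was called, Slc25a45, where 19.7% of all genes were called at that size.

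The balance of directions depended on how libraries were scaled. Scaling by total counts alone moved the median over all genes from −0.02 to −0.23, and the carriers gave 4 higher and 17 lower (18.6% and 50.8% of all genes). With upper-quartile factors, where the median over all genes was −0.11, they gave 7 higher and 10 lower (24.4% and 39.8% of all genes), and with DESeq2 size factors 12 higher and 7 lower (31.7% and 31.1%). A core of 11 carriers kept both direction and call under every alternative in which they could be tested. The 4 higher ones were Slc25a1, Slc25a36, Slc25a37 and Slc25a51, and the 7 lower ones were Slc25a3, Slc25a5, Slc25a13, Slc25a17, Slc25a27, Slc25a42 and Slc25a45.

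**Figure D1:**
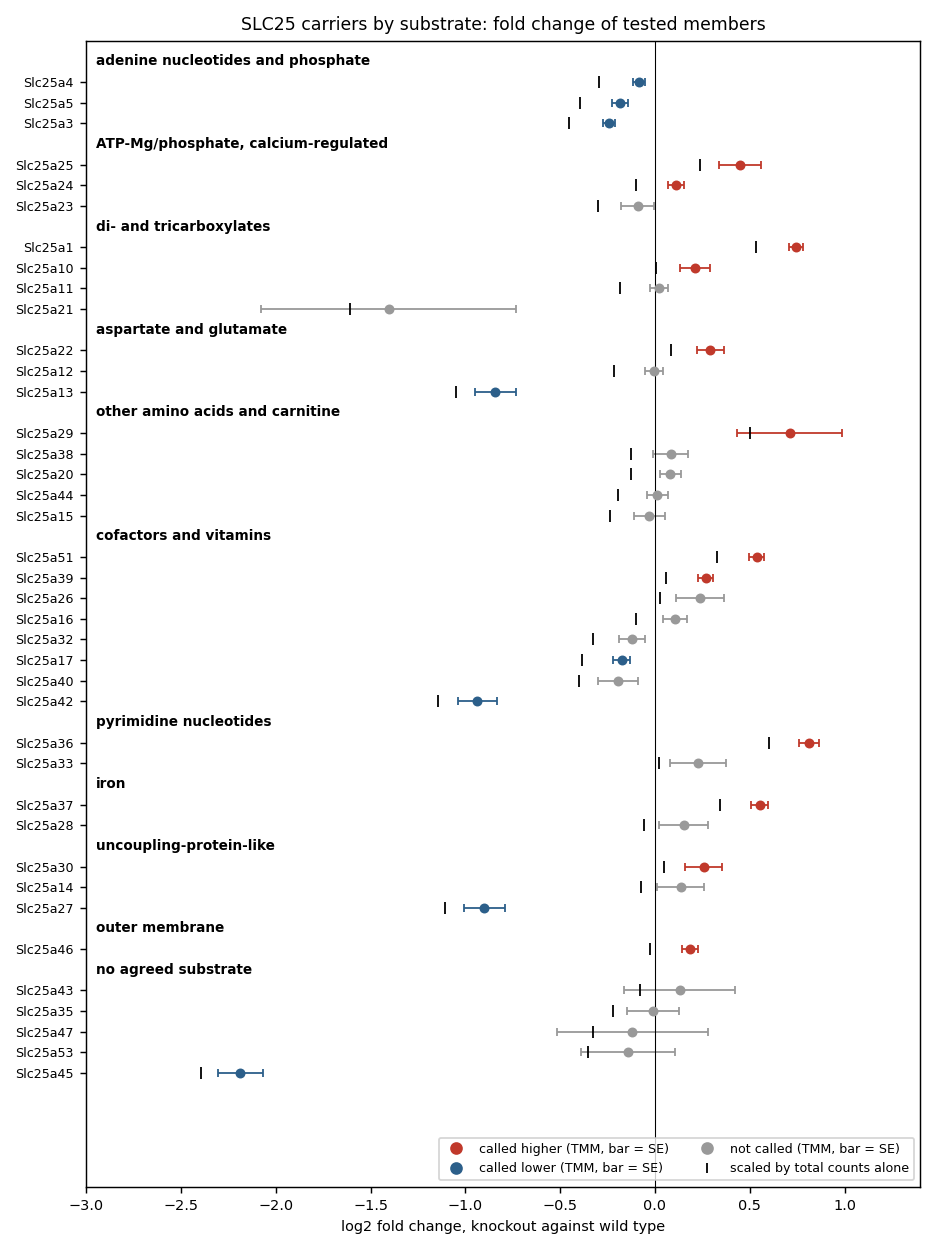
The log2 fold change (knockout against wild type, x axis) of 39 tested carriers is shown by substrate, with TMM scaling as points and SE as bars, and with scaling by total counts alone as ticks. Slc25a45 lies farthest to the left at −2.19, and the carriers near 0 cross it when the scaling changes.

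Compared per length, as deposited FPKM (reads relative to gene length and library total), the family was dominated by the carriers that serve ATP synthesis. In the wild type Slc25a4 stood at 249 ± 2.67 FPKM, Slc25a3 at 171 ± 5.63 and Slc25a5 at 89.6 ± 1.88, followed by Slc25a1 at 49.5 ± 0.616 and Slc25a17 at 42.3 ± 1.31. The libraries of these 5 carriers did not overlap. Farther down, Slc25a24 (21.3 ± 0.589), Slc25a20 (20.8 ± 1.15), and then Slc25a46 (14.4 ± 0.418), Slc25a36 (14.3 ± 0.928) and Slc25a37 (13.6 ± 0.434) were within each other's spread. At the bottom of the tested range lay Slc25a53 (0.295 ± 0.0649) and Slc25a21 (0.151 ± 0.0485).

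Slc25a4, Slc25a3 and Slc25a5 together took 59.6% to 60.1% of the family's summed FPKM in the wild-type libraries and 52.5% to 53.9% in the knockout libraries. Such shares are ratios within a library and do not depend on scaling between libraries. The family's sum does: it was 746 ± 9.57 FPKM in the knockout against 851 ± 14.3 in the wild type as deposited, but 802 ± 13.9 against 791 ± 13.2 once divided by the TMM factors. In the knockout the order near the top changed. Slc25a1 stood at 73.6, 70.7 and 70.7 FPKM and Slc25a5 at 70.6, 65.9 and 68.2 FPKM in CRE1, CRE2 and CRE3, so that the citrate carrier was above Slc25a5 in each knockout library. In the wild type Slc25a1 had stood at 48.8 to 50.0 FPKM, below Slc25a5 at 87.5 to 91.3 FPKM.

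**Figure D2:**
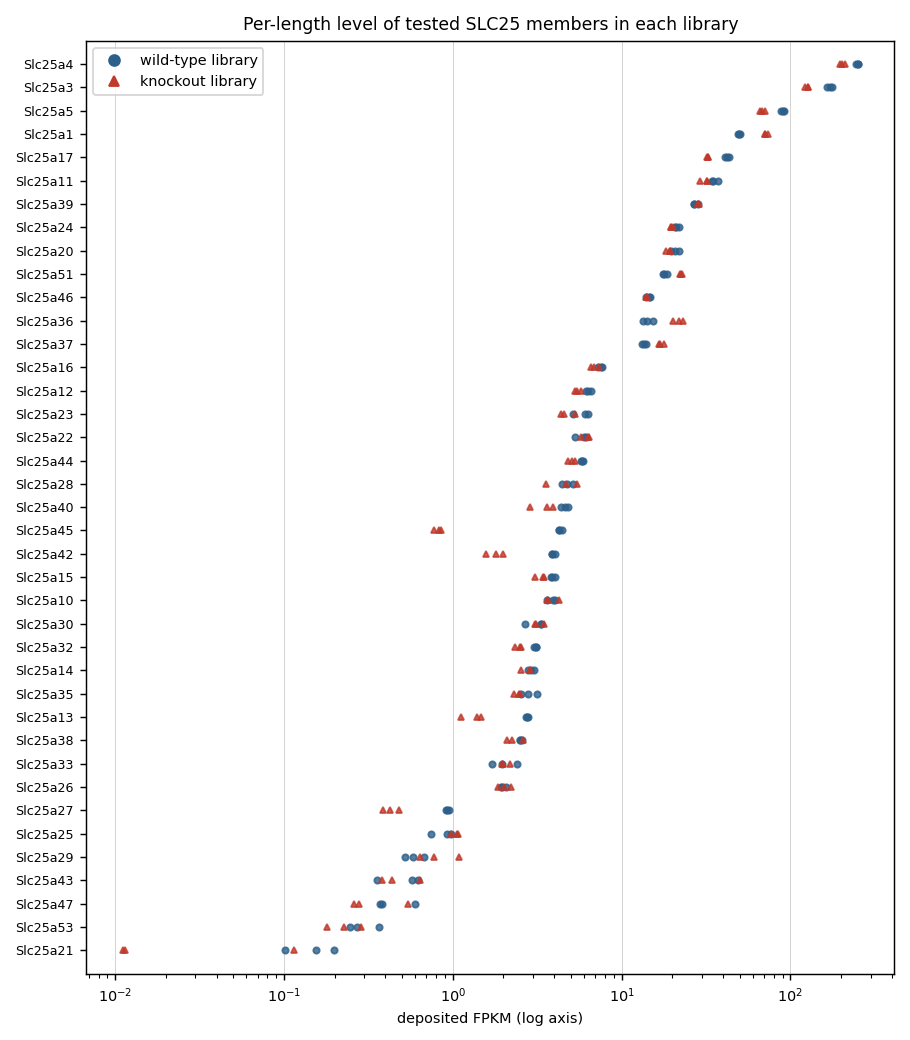
Each of 39 tested carriers is a row, ordered by its wild-type mean, and each point is a library on a log axis of deposited FPKM. Slc25a4, Slc25a3 and Slc25a5 lie at the top in the wild type, and Slc25a1 lies just above Slc25a5 in each knockout library.

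The stretches of DNA just before the start of 3 carriers with large changes are shown, so that the letters upstream of a riser and of 2 fallers can be compared. The 3 were not chosen by size alone: Slc25a36 rose more than Slc25a1, and Slc25a42 and Slc25a27 fell more than Slc25a13. The stretches are RefSeq sequences of build GRCm38.p6, 250 bases ending just before the gene's start, read 5′ to 3′ on the gene's strand. Slc25a1 lies at chr16:17928220-17928469 (minus strand), Slc25a45 at chr19:5877572-5877821 (plus strand) and Slc25a13 at chr6:6217174-6217423 (minus strand). The submitters' processing notes name GRCm39, so these positions are not in the build of the count table. Capitals mark matches to ACGTG, a form of the core of the hypoxia response element, or to TGANTCA, the AP-1 motif. The form GCGTG was not searched and is not marked.
Slc25a1: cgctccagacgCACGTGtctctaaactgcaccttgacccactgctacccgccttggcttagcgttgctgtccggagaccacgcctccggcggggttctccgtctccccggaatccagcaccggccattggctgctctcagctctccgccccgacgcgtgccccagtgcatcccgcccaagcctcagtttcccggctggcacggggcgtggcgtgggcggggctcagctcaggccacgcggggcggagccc
Slc25a45: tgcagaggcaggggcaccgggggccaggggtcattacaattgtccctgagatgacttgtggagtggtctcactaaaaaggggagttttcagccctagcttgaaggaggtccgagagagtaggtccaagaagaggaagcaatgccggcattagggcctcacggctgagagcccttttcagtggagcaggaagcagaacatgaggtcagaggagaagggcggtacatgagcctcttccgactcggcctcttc
Slc25a13: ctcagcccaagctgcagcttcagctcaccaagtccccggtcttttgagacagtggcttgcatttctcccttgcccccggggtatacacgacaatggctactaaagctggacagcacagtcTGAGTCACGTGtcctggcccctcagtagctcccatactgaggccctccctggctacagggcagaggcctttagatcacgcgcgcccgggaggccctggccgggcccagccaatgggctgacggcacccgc
Both strands were searched for these motifs and for CCGGAAG (ETS factors), the NRF1 motif and AAGGTCA (estrogen-related receptors). The palindrome in Slc25a1 and the one in Slc25a13 match ACGTG on both strands, and the latter overlaps the AP-1 match. Slc25a45 held none of the 5 motifs in this window. Promoter entries were found for 36 of the 46 carriers, of which 10 held ACGTG (27.8%), beside 16.6% of all 27025 genes with an entry and 21.2% of 11690 genes tested here. Among carriers with an entry, ACGTG was in 3 of 9 called higher and 2 of 7 called lower. CCGGAAG was in 6 of 36 carriers (16.7%, beside 12.9% of genes tested), with 0 of 9 called higher and 3 of 7 called lower. The NRF1 motif was in 2 carriers, AAGGTCA in 1 and TGANTCA in 2 (7.70%, 2.72% and 4.76% of genes tested). None of these 3 motifs was in a carrier called higher, and NRF1 and TGANTCA were each in 1 called lower. A match describes letters only, and no binding was measured.

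The carriers of adenine nucleotides and phosphate, which supply ATP synthase, were lower in all 3 that could be tested. Of all genes 32.1% were lower. Slc25a3, the phosphate carrier, stood at 235, 232 and 226 CPM in CRE1 to CRE3 and at 276, 264 and 281 CPM in the wild-type libraries. Every knockout library was below every wild-type library, and the log2 fold change was −0.24 (SE 0.0332, adjusted p = 1.06e-05). Slc25a5, the ADP/ATP carrier ANT2, was at 99.0, 91.2 and 95.0 CPM against 110, 105 and 108 CPM (−0.18, SE 0.0407, adjusted p = 0.00102), again without overlap. Slc25a4, the ADP/ATP carrier ANT1 that is known for heart and muscle, showed a narrower gap, with 303, 286 and 282 CPM against 310, 304 and 310 CPM. Its difference of −0.08 (SE 0.0326, adjusted p = 0.0345) lost its call with DESeq2 (adjusted p = 0.123), and also once CRE2, CRE3 or any wild-type library was left out (−0.094 to −0.051, the smallest without CRE3; adjusted p = 0.0557 to 0.299; over all alternatives 7.93e-07 to 0.299). The ratio of Slc25a4 to Slc25a5 was 2.89 to 3.05 in the knockout libraries and 2.74 to 2.80 in the wild type. Slc25a31, a testis ADP/ATP carrier, had at most 3 counts in a library and was not tested.

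Of 16 subunits and regulators of ATP synthase, 4 were higher and 3 lower, with a median log2 fold change of 0.04 (1 higher and 11 lower with total counts alone). Over all tested genes 30.7% were higher and 32.1% lower, and 18.6% and 50.8% with total counts alone. Atpif1, the inhibitor of the enzyme, fell from 65.0 ± 0.783 to 42.4 ± 2.51 CPM (−0.62, SE 0.0492, adjusted p = 2.22e-08). The subunit Atp5d rose (0.31, SE 0.0405, adjusted p = 6.56e-06).

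Calcium-regulated carriers exchange ATP-Mg for phosphate and so set the size of the matrix adenine nucleotide pool. Of the 3, 2 were called higher, beside 30.7% of all genes. Slc25a25 was higher, with 10.6, 11.3 and 11.5 CPM against 9.08, 8.58 and 6.87 CPM (log2 fold change 0.45, SE 0.109, adjusted p = 0.00223), and the groups did not overlap. Its call was lost with total counts alone (0.24, adjusted p = 0.0665) and on unfiltered log2(FPKM + 1) (0.12, adjusted p = 0.204; over all alternatives 0.000459 to 0.204). Its gene overlaps Naif1 in RefSeq, so reads of the overlap may be assigned to either gene. Slc25a24, the most abundant of the group, was at 71.4 to 72.9 CPM against 65.4 to 69.1 CPM (0.11, SE 0.0413, adjusted p = 0.0306), and with total counts alone it was called in the opposite direction (−0.099, adjusted p = 0.0428). The call for Slc25a24 was also lost without CRE2, or without wild-type library 2 or 3 (adjusted p = 0.0603 to 0.123; over all alternatives 0.0193 to 0.708). Slc25a23 overlapped between groups at 19.4 ± 1.83 and 20.7 ± 2.28 CPM and did not pass.

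Among carriers of di- and tricarboxylates Slc25a1 stood out. It exports citrate, from which the cytosol makes acetyl-CoA for lipid synthesis. It rose from 76.4, 77.4 and 78.0 CPM in the wild-type libraries to 134, 127 and 128 CPM in CRE1 to CRE3, a 1.67-fold rise (log2 fold change 0.74, SE 0.0378, adjusted p = 8.59e-11). The range over all alternatives was 0.52 to 0.77. Slc25a10, the dicarboxylate carrier, was at 15.6 to 18.1 CPM against 13.5 to 14.9 CPM (0.21, SE 0.0808, adjusted p = 0.0326). That difference was gone with total counts alone (0.0031, adjusted p = 0.975) and its call was lost without CRE2 or without wild-type library 1 or 2 (adjusted p = 0.0588 to 0.143; over all alternatives 0.0147 to 0.990). Slc25a11, the oxoglutarate carrier of the malate-aspartate shuttle, overlapped at 70.6 ± 3.60 and 69.6 ± 2.85 CPM and did not pass. Slc25a21, an oxodicarboxylate carrier, had 1, 12 and 1 counts in CRE1 to CRE3, with overlap, against 17, 11 and 22. The log2 fold change of −1.41 (SE 0.671, adjusted p = 0.0814) did not pass, and without CRE2 it was −3.39 (adjusted p = 0.0034; over all alternatives 0.0034 to 0.243).

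Enzymes of citrate synthesis, citrate use and the steps around them gave 3 higher and 3 lower of 9. Over all genes 30.7% were higher and 32.1% lower. With total counts alone the enzymes gave 2 higher and 7 lower, beside 18.6% and 50.8% of all genes. Me1, which makes NADPH from malate, rose from 119 ± 2.02 to 197 ± 6.70 CPM (log2 fold change 0.72, adjusted p = 6.36e-11). Mitochondrial Idh2 fell from 67.5 ± 0.928 to 26.4 ± 1.81 CPM (−1.35, adjusted p = 3.34e-12).

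Aspartate-glutamate carriers pass aspartate to the cytosol for the malate-aspartate shuttle, and 1 of the pair was lower. Slc25a13 (citrin), the form best known from liver, fell from 12.2, 12.01 and 12.4 CPM to 7.22, 5.71 and 7.58 CPM (log2 fold change −0.84, SE 0.108, adjusted p = 5.45e-06). Slc25a12 (aralar), the form known from brain and muscle, overlapped at 51.3 ± 2.44 and 51.5 ± 1.65 CPM and did not pass. Per length, Slc25a12 exceeded Slc25a13 by 2.25 to 2.44 times in the wild-type libraries and by 3.71 to 4.73 times in the knockout libraries. The glutamate carrier Slc25a22 was higher, at 21.4 to 23.7 CPM against 17.0 to 19.6 CPM (0.29, SE 0.0722, adjusted p = 0.00241), but not with total counts alone (0.083, adjusted p = 0.325; over all alternatives 0.000295 to 0.442). Its relative Slc25a18 had at most 6 counts in a library and was not tested. Of 7 enzymes of the malate-aspartate and glycerol phosphate shuttles, 4 were higher and 2 lower, beside 30.7% and 32.1% of all genes. With total counts alone 2 were higher and 2 lower, beside 18.6% and 50.8% of all genes. Mdh2 (0.33, SE 0.0321, adjusted p = 2.47e-07) and Got1 (0.40, SE 0.0493, adjusted p = 3.57e-06), both of the malate-aspartate shuttle, had the smallest p.

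**Figure D3:**
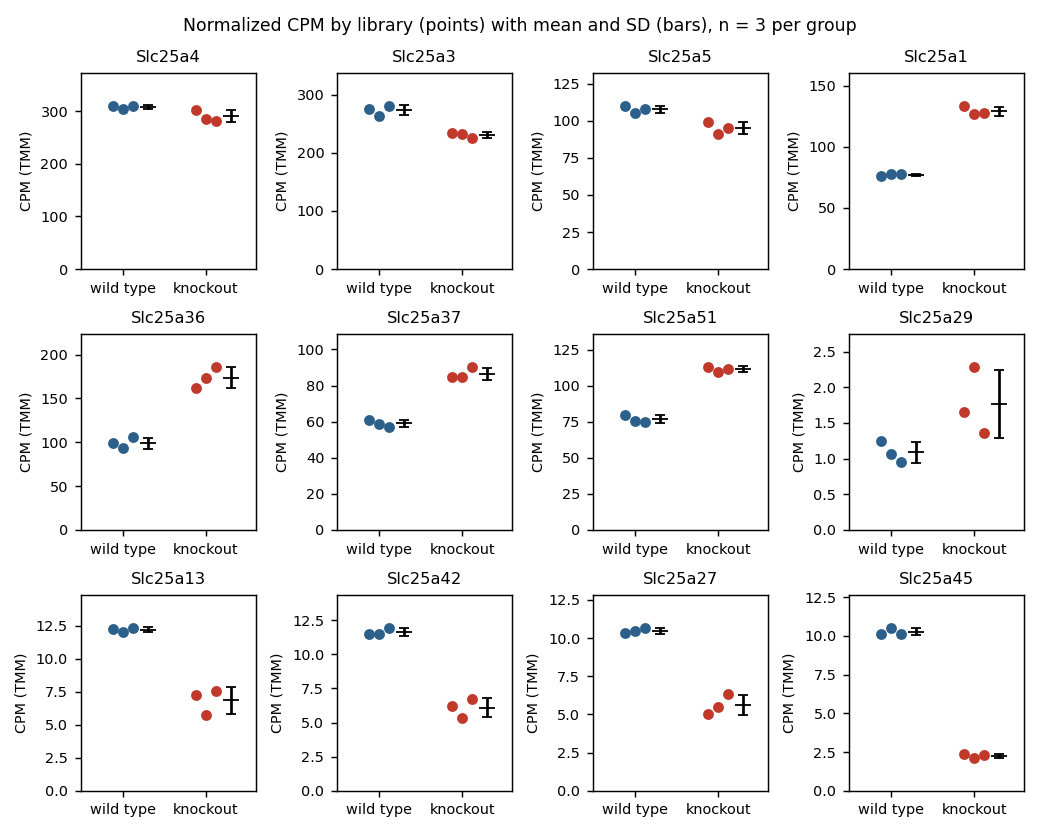
CPM after TMM scaling (y axes from 0) is shown for each library of both groups, with mean and SD, n = 3 per group, for the 3 most abundant carriers and the 9 called with a log2 fold change of at least 0.5 in size. Slc25a45 at 2.12 to 2.37 CPM in the knockout lies far below its wild-type level of 10.2 to 10.5 CPM, while Slc25a29 rests on few counts and is spread widely.

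Of 5 tested carriers of other amino acids and of carnitine, 1 was called, beside 62.7% of all genes. Slc25a29, which carries basic amino acids, was called higher at 1.65, 2.29 and 1.36 CPM against 1.24, 1.07 and 0.949 CPM (log2 fold change 0.71, SE 0.275, adjusted p = 0.0355). CRE2 was the highest of these libraries, and without it the difference was 0.49 (adjusted p = 0.192). The call was also lost without wild-type library 2 or 3 (adjusted p = 0.0858 and 0.114; over all alternatives 0.0161 to 0.192). The ornithine carrier Slc25a15 (13.4 ± 0.979 and 13.7 ± 0.361 CPM, knockout first), the glycine carrier Slc25a38 (10.96 to 13.7 and 11.3 to 11.6), the branched-chain amino acid carrier Slc25a44 (29.7 ± 1.53 and 29.4 ± 0.391) and the carnitine-acylcarnitine carrier Slc25a20 (35.8 ± 1.15 and 33.8 ± 1.84) overlapped between groups and did not pass. Slc25a2, a second ornithine carrier, had at most 5 counts and was not tested.

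Among enzymes on either side of these steps, Cpt1a, which loads fatty acids onto carnitine, fell from 81.4 ± 1.24 to 45.0 ± 2.59 CPM (log2 fold change −0.85, adjusted p = 2.75e-10) and was the only called gene of 4 tested in the carnitine shuttle (4 lower with total counts alone). Of all genes 32.1% were lower, and 50.8% with total counts alone. Crat, next by p, was at 34.3 ± 1.57 and 36.7 ± 0.312 CPM and did not pass. Of 6 tested enzymes of ornithine and glutamate, 3 were higher and 3 lower, beside 30.7% and 32.1% of all genes. Odc1, which turns ornithine into putrescine, rose from 51.2 ± 3.12 to 94.9 ± 3.29 CPM (0.89, adjusted p = 2.58e-10). Arg2, the mitochondrial arginase that makes ornithine, had 95, 112 and 100 counts in CRE1 to CRE3 and 0, 3 and 0 counts in the wild-type libraries.

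Carriers of cofactors gave 2 higher and 2 lower among 9, beside 30.7% and 32.1% of all genes. All 9 were tested. Slc25a51, which imports NAD, rose from 80.1, 75.9 and 74.9 CPM to 113, 110 and 112 CPM (log2 fold change 0.54, SE 0.0400, adjusted p = 9.97e-09). Slc25a42, which imports coenzyme A, fell from 11.5, 11.5 and 11.96 CPM to 6.22, 5.34 and 6.75 CPM (−0.94, SE 0.104, adjusted p = 1.16e-06). In neither case did the groups overlap. Slc25a17, the peroxisomal carrier of coenzyme A, FAD and NAD, was at 57.5 to 58.8 CPM against 63.5 to 67.5 CPM (−0.18, SE 0.0427, adjusted p = 0.00211). The glutathione carrier Slc25a39 was higher, at 89.0 to 91.1 CPM against 73.5 to 77.4 CPM (0.27, SE 0.0398, adjusted p = 2.62e-05), though not with total counts alone (0.059, adjusted p = 0.198; over all alternatives 5.19e-08 to 0.198).

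Other cofactor carriers did not pass. Among them were Slc25a16, linked to coenzyme A (23.2 ± 1.24 and 21.6 ± 0.608 CPM, knockout first), the S-adenosylmethionine carrier Slc25a26 (5.45 ± 0.444 and 4.64 ± 0.150), the folate and FAD carrier Slc25a32 (15.9 ± 0.653 and 17.3 ± 0.227) and the glutathione carrier Slc25a40 (9.38 to 12.8 and 12.3 to 13.7). Of those named, Slc25a40 alone overlapped between groups. Slc25a32 and Slc25a40 were called lower with upper-quartile factors (adjusted p = 0.0148 and 0.0257) and with total counts alone (adjusted p = 0.000657 and 0.00376). Slc25a52, a second NAD carrier, has no row in the table used here.

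Both pyrimidine nucleotide carriers and both iron carriers followed a like pattern, in which the abundant member was called higher and the scarce member did not pass. Slc25a36 rose from 98.5, 92.8 and 105 CPM to 162, 173 and 186 CPM (log2 fold change 0.81, SE 0.0526, adjusted p = 1.76e-09), the largest rise in the family. Slc25a33 overlapped at 5.06 ± 0.309 and 4.32 ± 0.738 CPM, with a value also above 0 but a larger SE (0.23, SE 0.149). Slc25a37 (mitoferrin 1), which imports iron for haem and iron-sulfur clusters and is best known from red cell precursors, rose from 61.1, 58.8 and 57.1 CPM to 84.7, 84.7 and 90.4 CPM (0.55, SE 0.0445, adjusted p = 2.51e-08). Slc25a28 (mitoferrin 2), the form of other tissues, overlapped at 9.27 ± 1.85 and 8.39 ± 0.593 CPM. Its value was 0.15, again with a larger SE (0.129), and −0.057 with total counts alone. Whether the scarce members did not pass because of their fewer counts was not tested. The haemoglobin genes Hba-a1 and Hbb-bs, which mark red cell precursors, had knockout means of 0.583 and 0.706 CPM, against 0.288 and 0.337 CPM. Of 12 genes of iron-sulfur and haem synthesis, 5 were higher and 3 lower, beside 30.7% and 32.1% of all genes (4 and 5 with total counts alone, beside 18.6% and 50.8%). The smallest p among them belonged to Isca1 (0.66, adjusted p = 1.63e-09) and Hspa9 (0.36, adjusted p = 8.53e-09).

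Ratios within a library compare carriers that share a substrate or a class without any scaling between libraries. Of 11 pairs listed, 9 had both members at a mean of at least 1 FPKM in either group. With 3 libraries against 3 the exact two-sided permutation test cannot give a p below 0.1, and so cannot pass 0.05. In 7 pairs the libraries of the groups did not overlap (exact permutation p = 0.1 each, 0.129 after adjustment over the 9 pairs). The share over all pairs of genes was not computed, but 67.1% of single genes did not overlap in these libraries. Each of the 7 pairs holds a carrier called above, so these ratios are not independent of those calls. The largest shift was that of Slc25a16 against Slc25a42, whose log2 ratio went from 0.92 ± 0.0453 in the wild type to 1.96 ± 0.147. Slc25a12 against Slc25a13 went from 1.22 ± 0.0639 to 2.06 ± 0.175. Slc25a39 against Slc25a40 went from 2.57 ± 0.0881 to 3.05 ± 0.236.

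Slc25a33 lay lower against Slc25a36, at −3.40 ± 0.0435 against −2.83 ± 0.305, and Slc25a28 lower against Slc25a37, at −1.93 ± 0.293 against −1.51 ± 0.132. Slc25a24 over Slc25a25 stood at 4.25 ± 0.0713 and 4.599 ± 0.196. Slc25a4 against Slc25a5 had the smallest shift of the 7 pairs, 0.099 on the log2 scale. Slc25a23 against Slc25a24 (−2.07 ± 0.123 and −1.86 ± 0.166, p = 0.2, adjusted p = 0.225) and Slc25a14 against Slc25a30 (−0.22 ± 0.111 and −0.094 ± 0.133, p = 0.3, adjusted p = 0.3) overlapped between groups in the exact test.

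**Figure D4:**
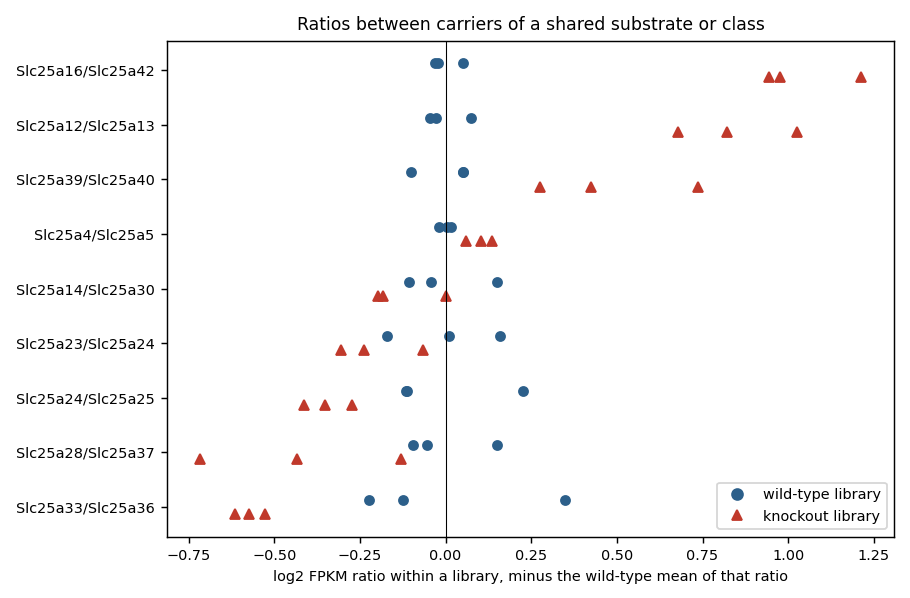
Each row is a pair of carriers and each point a library, placed by its log2 FPKM ratio minus the wild-type mean of that pair. Slc25a16/Slc25a42 and Slc25a12/Slc25a13 are shifted farthest to the right in the knockout and Slc25a33/Slc25a36 and Slc25a28/Slc25a37 farthest to the left, while Slc25a14/Slc25a30 and Slc25a23/Slc25a24 overlap.

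Carriers named for their likeness to uncoupling proteins, whose substrates are less settled, split in direction. Slc25a27 (UCP4), known from brain, fell from 10.3, 10.4 and 10.7 CPM to 5.05, 5.48 and 6.32 CPM (log2 fold change −0.90, SE 0.107, adjusted p = 2.36e-06). Slc25a30 was called higher at 14.1 to 15.9 CPM against 10.6 to 13.2 CPM (0.26, SE 0.0962, adjusted p = 0.0306). That call was lost with total counts alone (0.047, adjusted p = 0.679) and without CRE3 (0.21, adjusted p = 0.0956) or wild-type library 3 (0.16, adjusted p = 0.159; over all alternatives 0.0144 to 0.746). Slc25a14 (UCP5) overlapped at 5.60 ± 0.425 and 5.09 ± 0.212 CPM.

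Slc25a46, the outer-membrane member that binds the fusion machinery, was at 67.3 to 69.0 CPM against 58.3 to 61.4 CPM. The groups did not overlap and the log2 fold change was 0.18 (SE 0.0420, adjusted p = 0.00137), but with total counts alone it was −0.026 (adjusted p = 0.590; over all alternatives 0.000723 to 0.590). Mfn2, which encodes a partner, fell by 0.84 on the log2 scale in the same libraries.

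The largest change in the family was in a carrier grouped here among those without an agreed substrate. Slc25a45 fell from 10.2, 10.5 and 10.2 CPM to 2.37, 2.12 and 2.29 CPM, a 4.55-fold difference (log2 fold change −2.19, SE 0.120, adjusted p = 2.19e-10), and over all alternatives the value ran from −2.40 to −1.55. In the order of per-length levels it went from rank 21 of 46 in the wild type to rank 35 in the knockout. Of the other 7 carriers in this group, Slc25a35, Slc25a43, Slc25a47 and Slc25a53 did not pass, with levels of 0.662 to 4.82 CPM in either group and overlapping libraries. Slc25a34, Slc25a48 and Slc25a54 had at most 7 counts in a library and were not tested. Over the same libraries the median fold change on the log2 scale was −4.55 for the 12 macrophage markers and −1.30 for the 12 chondrocyte markers, and the part of either in the fall of Slc25a45 was not tested.

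Family members under other symbols differed among themselves. Ucp2, an uncoupling protein abundant in macrophages and other immune cells, was at 2.78, 2.88 and 2.53 CPM in CRE1 to CRE3 and at 49.2, 45.8 and 52.1 CPM in the wild-type libraries. This 17.9-fold fall (log2 fold change −4.16, SE 0.0842, adjusted p = 1.04e-15) was larger than that of any carrier with a Slc25a symbol, and the macrophage markers, at a summed 314 to 325 CPM against 2913 to 2934 CPM, fell over the same libraries. Their part in it was not tested. Mtch1 (0.20, adjusted p = 0.00023) and Mtch2 (0.12, adjusted p = 0.0166), carrier-like proteins of the outer membrane, were higher, although with total counts alone none of this list was higher and 2 were lower. Ucp3 had at most 5 counts in a library and was not tested, and Ucp1 has no row in the table used here.

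Of 9 genes on the TIM22 route, which inserts carriers into the inner membrane, 6 rose and 1 fell, beside 30.7% and 32.1% of all genes (4 and 1 with total counts alone, beside 18.6% and 50.8%). Their median log2 fold change was 0.32. Tomm70a, the outer-membrane receptor for carrier precursors, rose from 67.1 ± 1.37 to 108 ± 2.50 CPM (0.68, SE 0.0392, adjusted p = 3.86e-10). Timm8a1, a small chaperone of the space between the membranes, rose from 4.12 ± 0.959 to 9.09 ± 0.383 CPM (1.14, SE 0.146, adjusted p = 5.31e-06). Among 13 inner-membrane transporters of other families none was higher and 5 were lower, beside 32.1% of all genes lower (12 lower with total counts alone, beside 50.8%). The lower ones included the calcium uniporter Mcu (−0.66, SE 0.0681, adjusted p = 5.28e-07) and the sideroflexin Sfxn4 (−1.32, SE 0.218, adjusted p = 7.71e-05).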

How the data were processed

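The authors deposited whole-number read counts per gene symbol and FPKM values (the count relative to gene length and column total) for 6 libraries, per the file headers. Tools listed in the submitters' processing notes are HTSeq, HISAT2 and fastp, and the build is GRCm39. The sources used here do not give strand, annotation or filters. Wild-type columns matched sample titles by number. The knockout columns show the group alone. Within a group, libraries differed beyond sampling noise (chi-square per degree of freedom 3.19 to 8.09).

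In R 4.3.3, edgeR 4.0.16 gave the quasi-likelihood test on counts (group alone, TMM, filterByExpr with a minimum count of 10). The test was run on simulated data in which few genes changed, up and down alike. That simulation cannot check the scaling in data where most genes are called. SE is the log2 fold change divided by the square root of F. Carriers were grouped by substrate from textbook knowledge. Values by library are given for called carriers of at least 0.5 in log2 size and for Slc25a3, Slc25a4 and Slc25a5, and for each list the 2 genes with the smallest p are named. Other carriers are given by range or mean, some with library values. Ratios within libraries used FPKM without a pseudocount. Marker lists covered chondrocytes, macrophages, dividing cells, fibroblasts, endothelium, skeletal muscle, adipocytes and erythroid cells. The carriers and lists were chosen with earlier results of these data known. Alternatives were DESeq2 1.42.0, limma 3.58.1 (voom, and log2(FPKM + 1) or log2(FPKM + 0.1)), other factors and filters, a replicate block and leaving out each library. In RefSeq (GRCm38.p6) 7 carriers overlap another protein-coding gene, and Slc25a5 has a pseudogene copy, so their counts are less certain. The values of 1 tested carrier are not reported here, though it stays in the counts.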

Additional observations from a re-analysis of the deposited data

How the results depend on the processing

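Of the 20 called carriers, 11 kept direction and call under each of up to 17 alternatives, and 9 changed in at least 1. The 12 higher and 8 lower carriers became 7 and 10 with upper-quartile factors and 4 and 17 with total counts alone. On log2(FPKM + 1) or log2(FPKM + 0.1) for genes averaging 1 FPKM or more they were 4 and 16, and on unfiltered log2(FPKM + 1) 4 and 15. With that filter the median over all genes was −0.17 and −0.19, and unfiltered it was −0.02. The filter left out Slc25a25, Slc25a27 and Slc25a29, and 16 of the 20 uncalled carriers kept a value. Leaving out each library gave 9 to 13 higher and 7 to 9 lower. DESeq2 gave 10 and 7. Slc25a24 turned to lower with total counts alone (−0.099) and on FPKM (−0.095 with and without the filter at a pseudocount of 1, −0.099 at 0.1). Slc25a46 turned to −0.026 with total counts alone, −0.024 on log2(FPKM + 1) with and without the filter and −0.025 on log2(FPKM + 0.1). Slc25a10 turned to −0.0011 on log2(FPKM + 1) with and without the filter and −0.0018 on log2(FPKM + 0.1). Of the 20 carriers not called, 9 had the opposite sign and 8 were called lower with total counts alone. With total counts alone, other-symbol carriers gave 0 higher and 2 lower, other inner-membrane transporters 12 lower, shuttle enzymes 2 higher, citrate genes 7 lower, the carnitine shuttle 4 lower, iron and haem genes 5 lower, and ATP synthase 1 higher and 11 lower. With upper-quartile factors, other-symbol carriers gave 1 higher, citrate genes 5 lower, the carnitine shuttle 4 lower and ATP synthase 5 lower. Over all genes, 18.6% were higher and 50.8% lower with total counts alone, and 24.4% and 39.8% with upper-quartile factors. Such shares were not computed for the other alternatives in this paragraph, so their counts are not set against all genes. Ratios between carriers kept their sign under the pseudocount and without each library. The numbers in the column names did not pair the libraries (correlation of deviations −0.086, 0.055 and −0.095), and 1 of 3 knockout libraries correlated best with its own number. A replicate block on them gave 10 higher and 7 lower. Slc25a21, at 1 to 22 counts in a library, is limited by depth.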
